A study of Mus musculus with 6 samples.

Results

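The autophagy machinery genes described here are 37 genes chosen by symbol for their known roles: the kinases, lipid-transfer proteins, conjugation enzymes and ubiquitin-like modifiers that build the autophagosome, its cargo receptors, and the transcription factors Tfeb and Tfe3. They were found by matching the gene identifiers of the deposited count table to these symbols. All 37 were found, each as 1 row, among 55335 genes in the table. RNA was sequenced from intestinal tissue of 6 mice with colitis induced by dextran sulfate sodium (DSS), a polymer given to damage the gut epithelium. In 3 mice both copies of Trmt6 were deleted according to the labels (Trmt6-/-), and 3 mice were wild type (WT). Trmt6 encodes a subunit of the enzyme that methylates an adenosine of transfer RNAs. Strain, sex, age, the deleted exons, the cells in which the deletion acts and the gut segment are not given in the sources used here. Mice without DSS were not analysed here, so the values below compare genotypes in colitis and say nothing of the response to DSS.

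Macroautophagy wraps cytoplasm in a double membrane, the autophagosome, and delivers it to the lysosome. The ULK kinase complex starts the process, a phosphatidylinositol 3-kinase (PI3K) complex marks the membrane with the lipid PI3P, and a pair of ubiquitin-like conjugation systems attach proteins of the Atg8 family (LC3 and GABARAP) to it, where cargo receptors dock. In the intestinal epithelium autophagy genes are known for their part in Paneth cell granule secretion, in clearing invading bacteria and in limiting epithelial cell death during inflammation. Much autophagy control acts on proteins through phosphorylation, lipidation and turnover, which transcript counts do not measure.

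The libraries held 15213972 to 16972758 counts and are named as in the count table, by KO or WT and a number that no label explains. Values by library are listed below in the order KO72, KO73, KO75 for the Trmt6-/- label and WT185, WT186, WT187 for WT. Trmt6 transcripts stood at 34.2 to 39.8 CPM (counts-per-million, that is, counts scaled for library size) under the Trmt6-/- label, above all WT libraries (18.7 to 30.9 CPM), with a log2 fold change of 0.60 (adjusted p = 0.335). The labelled deletion was therefore not visible as a lower count, and the genotype is given below as labelled. Absorptive enterocyte markers summed to 15189 to 44826 CPM in the 6 libraries and goblet cell markers to 8345 to 16847 CPM. Paneth cells and Lct, the lactase gene, mark small intestine. Paneth cell markers summed to 811 to 6894 CPM and Lct stood at 119 to 3192 CPM. All libraries thus held small-intestinal transcripts, although the segment is not labelled. Smooth muscle markers stayed at or under 2.37 CPM in sum, fibroblast markers at or under 8.38 CPM and neutrophil markers at or under 6.62 CPM, so transcripts of the epithelium far exceeded those of the gut wall. The neutrophil genes S100a8, S100a9 and Ly6g had 0 counts in all 3 WT libraries and at most 48 in those labelled Trmt6-/-. Markers of T and NK cells summed to 77.5 to 679 CPM in the libraries labelled Trmt6-/- and to 251 to 941 CPM in the WT libraries, and all 7 had log2 fold changes below 0. An index of gut region (mean log2 CPM of 4 ileal minus 4 proximal genes) was -3.67 to 0.61 under the Trmt6-/- label, compared with -7.41 to -1.69 in WT.

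All 37 machinery genes had enough counts to be tested with the quasi-likelihood test of edgeR, which compared the 2 genotypes over 14107 genes. None passed an adjusted p of 0.05; over all genes 6 did (0.0425%). At an unadjusted p below 0.05 stood 2 of the 37 (5.41%), Tfeb and Tfe3, against 12.1% of all genes. Both were lower in the libraries labelled Trmt6-/-, a direction that held 5.94% of all genes, and none of the 37 was among the 6.15% of genes at this p that were higher. The median log2 fold change of the machinery genes was 0.01, with 19 above 0 and 18 below, and that of all genes tested was -0.03; scaled by library totals instead, 16 lay above 0. In bulk tissue, fewer cells of a type and less RNA per cell cannot be told apart.

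**Figure D1:**
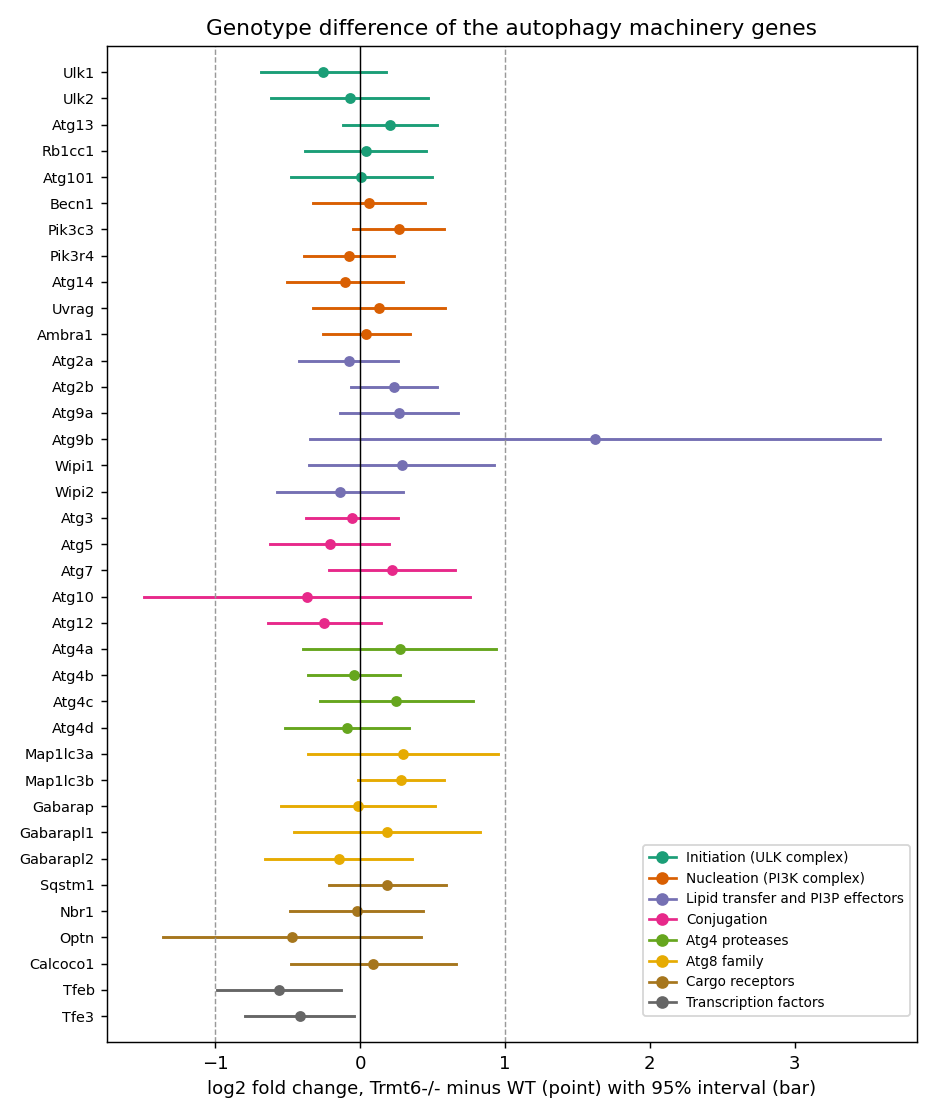
Log2 fold change (libraries labelled Trmt6-/- minus WT) of the 37 machinery genes, points, with approximate 95% intervals from the edgeR fit, bars. Colours mark the functional group, and dashed lines mark a 2-fold change. The intervals of 34 genes lie inside the dashed lines, and those of Atg9b, Atg10 and Optn reach past them.

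The intervals show how large a difference the 3 mice per group leave possible. For 34 of the 37 genes the approximate 95% interval of the log2 fold change lay wholly inside a 2-fold change in either direction. The share over all genes tested was 50.2%. The exceptions were Atg9b (-0.35 to 3.59), Atg10 (-1.49 to 0.76) and Optn (-1.36 to 0.42). Atg9b and Atg10 had few reads, whereas Optn was abundant and spread widely among the WT mice. Interval width depends on read counts, and the share over all genes was not matched for expression level. The genotypes did not overlap for 5 machinery genes (13.5%), compared with 18.7% of all genes. Pik3c3, Atg2b and Map1lc3b were the 3 that were higher in every library labelled Trmt6-/- (9.7% of all genes), and Tfeb and Tfe3 the 2 that were lower in every one (9.03% of all genes). All 3 libraries labelled Trmt6-/- fell inside the WT range for 14 of the 37 genes (37.8%), compared with 20.6% of all genes, again not matched for level.

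**Figure D2:**
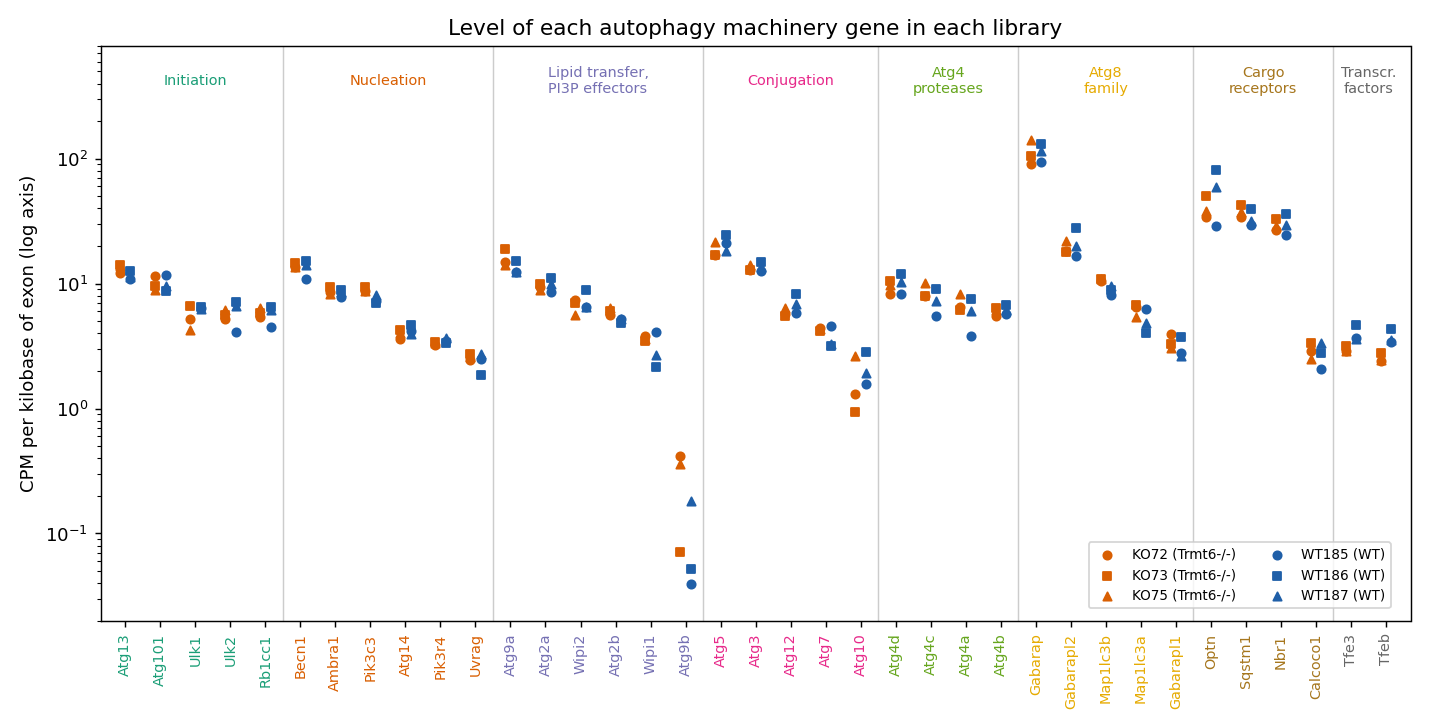
Level of each machinery gene in each library, in CPM per kilobase of exon on a log axis, ordered within functional groups by mean level; orange is Trmt6-/- and blue is WT by label. Gabarap stands highest at a mean of 113, Atg9b lowest at 0.187, and the genotypes intermingle for most genes.

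Tfeb and Tfe3 encode basic helix-loop-helix leucine zipper factors that are held in the cytoplasm when the kinase complex mTORC1 is active and, once in the nucleus, switch on lysosomal and autophagy genes. Tfeb (ENSMUSG00000023990.18, GRCm38 chromosome 17, 47737030 to 47792419, plus strand) measured 13.7, 15.9 and 13.9 CPM in the libraries labelled Trmt6-/- against 19.4, 24.6 and 20.1 CPM in WT. Every library labelled Trmt6-/- lay below every WT library. The means were 14.5 ± 1.21 CPM and 21.3 ± 2.81 CPM (SD, n = 3 each). The log2 fold change was -0.56 ± 0.18 (SE), with an unadjusted p of 0.0176 and an adjusted p of 0.293.

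Tfe3 (ENSMUSG00000000134.17, chromosome X, 7762560 to 7775202, plus strand) measured 26.8, 29.1 and 26.8 CPM in the libraries labelled Trmt6-/- against 34.2, 43.0 and 33.1 CPM in the WT libraries. These groups did not overlap either, with KO73 the highest of its group and WT186 the highest of all. The means were 27.6 ± 1.35 and 36.8 ± 5.41 CPM (SD, n = 3 each). The log2 fold change was -0.42 ± 0.16 (SE), with an unadjusted p of 0.0348 and an adjusted p of 0.367. Neither difference passed the adjusted threshold, so neither counts as a change in this test.

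Per kilobase of exon the pair stood at 3.16 (Tfeb) and 3.47 (Tfe3) CPM, among the lower levels of the machinery genes. The log2 fold change stayed below 0 for both genes under all 14 alternative analyses. It ran from -0.63 to -0.44 for Tfeb and from -0.50 to -0.28 for Tfe3. As the genotypes did not overlap, leaving 1 library out could hardly turn the sign, and the other alternatives reuse the same 6 libraries. The unadjusted p of each alternative's own test lay below 0.05 in 10 of 14 for Tfeb and in 7 of 14 for Tfe3. With the regional index in the model Tfeb stood at -0.44 (unadjusted p of 0.0902) and Tfe3 at -0.31 (unadjusted p of 0.155). The index genes themselves were not balanced between the labels. All 4 ileal genes had log2 fold changes above 0, 1 of them at an edgeR unadjusted p below 0.05. Of the 4 proximal genes 3 lay below 0, 2 of them at that p, and 1 above. This model therefore cannot fully separate the label from the index, here or below. Without WT186 Tfeb stood at -0.44 (unadjusted p of 0.0581) and Tfe3 at -0.28 (unadjusted p of 0.117). Enteroendocrine markers, genes of a rare hormone-producing epithelial lineage, lay in the same direction as these factors. All 6 had log2 fold changes below 0, 5 of them at an unadjusted p below 0.05, their sums were 152 to 171 CPM in the libraries labelled Trmt6-/- and 277 to 430 CPM in the WT libraries, and none was at 0 in any library. The part of enteroendocrine cells in the Tfeb and Tfe3 values was not tested.

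**Figure D3:**
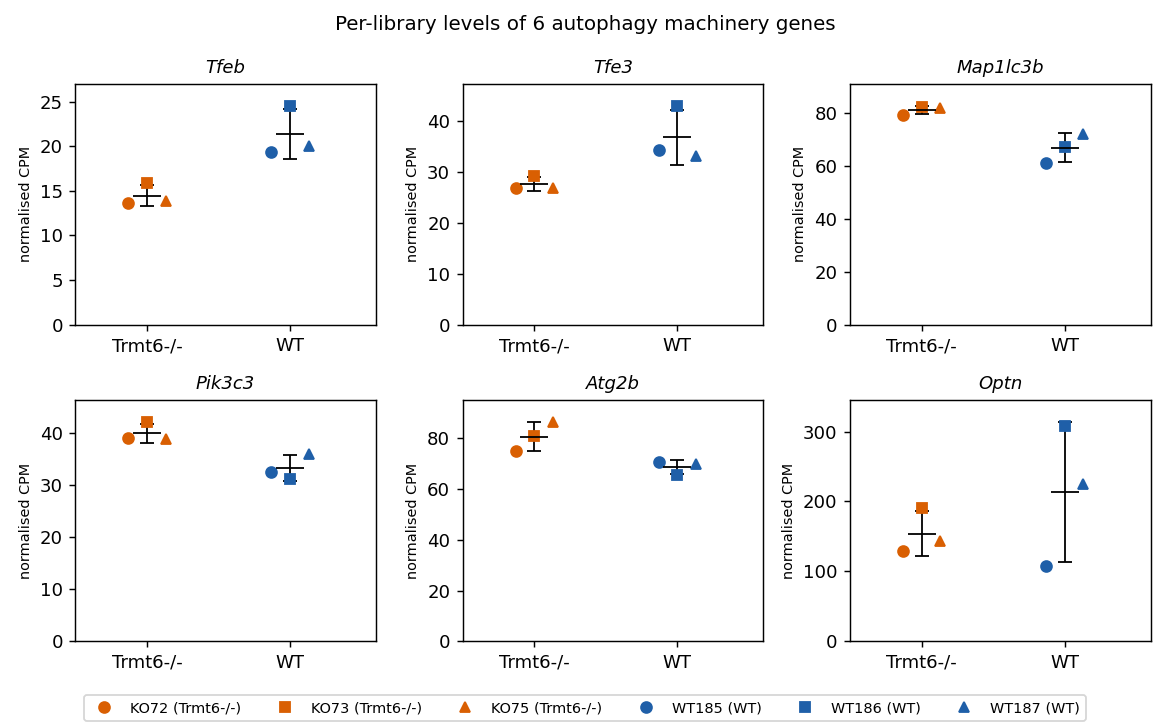
Normalised CPM of 6 machinery genes in each library, with the mean and SD of each genotype as black bars (n = 3 each) and axes from 0. Tfeb and Tfe3 are lower and Map1lc3b, Pik3c3 and Atg2b higher in every library labelled Trmt6-/-, whereas Optn spans 108 to 307 CPM in WT alone.

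Factors of the Tfeb family bind DNA at the E-box CACGTG, often within the longer palindrome TCACGTGA. Promoters from RefSeq (GRCm38.p6, 250 bases before to 50 after a gene's start) were held for 32 of the 37 genes, and CACGTG was searched there; it reads the same on both strands. It occurred for 4 of these 32 genes (12.5%), Atg3, Atg5, Atg7 and Atg14, and for 8.09% of all 27025 genes with a promoter. Counted by promoter, since a gene can have several, it was in 4 of 38 machinery promoters (10.5%) and in 7.15% of all 32851. The longer TCACGTGA, which contains CACGTG, occurred for 1 of the 32 genes (3.12%), Atg3, and for 1.12% of all genes (0.974% of all promoters). TGATGNAA, the composite element of the stress factor Atf4, was searched on both strands and occurred for 0 of the 32 genes and for 4.51% of all genes (3.97% of all promoters). The windows around the E-boxes are printed because they are the only machinery promoters holding the letters of the motif, which is in capitals, with 30 bases on each side:

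Atg3: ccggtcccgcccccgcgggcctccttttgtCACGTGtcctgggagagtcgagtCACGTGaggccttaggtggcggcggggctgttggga

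Atg5: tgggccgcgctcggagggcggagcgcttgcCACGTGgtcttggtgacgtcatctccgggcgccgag

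Atg7: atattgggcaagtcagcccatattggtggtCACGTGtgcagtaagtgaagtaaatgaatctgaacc

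Atg14: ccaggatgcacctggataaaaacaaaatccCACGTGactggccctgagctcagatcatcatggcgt

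The Atg3 window is chr16:45158705-45158793 on the plus strand. Its E-boxes begin 94 and 71 bases before a RefSeq start that lies inside the deposited gene. The Atg5 window is chr10:44268295-44268360 on the plus strand, with the E-box 14 bases before the start. The Atg7 window is chr6:114670934-114670999 on the plus strand. Its E-box begins 132 bases before a RefSeq start that also lies inside the deposited gene. The Atg14 window is chr14:47568400-47568465 on the minus strand. Its E-box begins 1 base before a start that also lies inside the deposited gene. All but the first base of this E-box therefore lie at or after that start. A match of letters is a description of sequence, and regulation of these 4 genes by Tfeb or Tfe3 was not tested. Atg7 had a log2 fold change of 0.22 ± 0.18, Atg3 of -0.05 ± 0.13, Atg14 of -0.11 ± 0.17 and Atg5 of -0.21 ± 0.17 (SE each). All 4 adjusted p-values in the edgeR test were 0.714 or higher.

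The 5 initiation genes showed no common direction, with a median log2 fold change of 0.01. Ulk1, the kinase that mTORC1 and AMPK control in opposite senses, measured 33.6, 42.6 and 27.6 CPM in the libraries labelled Trmt6-/- against 41.2, 42.1 and 40.4 CPM in the WT libraries. The WT mice were nearly equal, and KO73 exceeded all of them while the other two lay below. The log2 fold change was -0.25 ± 0.18 (SE; adjusted p = 0.670). Atg13, the adaptor with the highest level per kilobase in the complex (12.5 CPM), measured 53.1, 62.0 and 60.3 CPM against 47.2, 55.6 and 49.1 CPM. Only KO72 fell within the WT range, and the log2 fold change was 0.21 ± 0.14 (SE; adjusted p = 0.623). The scaffold Rb1cc1 (0.04), the kinase Ulk2 (-0.07) and Atg101 (0.01), which stabilises Atg13, lay close to 0. Rb1cc1 and Ulk2 shared a low value in WT185, at 66.0 CPM where the other libraries had 79.3 CPM or more and at 24.5 CPM where the others had 31.4 CPM or more.

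Of the 6 genes of the PI3K complex, 4 had log2 fold changes above 0 (3 with library totals as the scale, where Ambra1 was -0.02) and the median was 0.05. Becn1, the scaffold that recruits the lipid kinase, measured 96.4, 104 and 95.9 CPM in the libraries labelled Trmt6-/- against 76.4, 107 and 100.3 CPM in the WT libraries. The 3 libraries labelled Trmt6-/- lay close together inside the wider WT range, and the log2 fold change was 0.07 ± 0.16 (SE; adjusted p = 0.923). Of its exon bases, 43.9% overlap Cntd1 on the other strand, and unstranded counting cannot assign reads there by strand. Pik3c3, the catalytic subunit, measured 39.1, 42.2 and 39.0 CPM against 32.6, 31.3 and 36.1 CPM in WT. All libraries labelled Trmt6-/- lay above all WT libraries, and the log2 fold change was 0.27 ± 0.13 (SE; adjusted p = 0.505). Its regulatory partner Pik3r4 had a log2 fold change of -0.08 ± 0.13, so the subunits of the kinase did not lie on the same side of 0. Atg14 (-0.11), which directs the complex to autophagosome formation, Uvrag (0.13), which directs it to endosomes, and the positive regulator Ambra1 (0.04) did not pass the test.

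The lipid-transfer proteins and PI3P readers had a median log2 fold change of 0.25, with 4 of 6 genes above 0. Atg9a, the scramblase carried in vesicles to the growing membrane, had the highest level per kilobase (14.7 CPM), and 32.6% of its exon bases overlap Ankzf1 and Gm29253. It measured 85.6, 109.8 and 81.6 CPM in the libraries labelled Trmt6-/- against 70.9, 87.9 and 71.1 CPM in WT. KO73 exceeded all WT libraries and the others lay between WT186 and the remaining WT mice; the log2 fold change was 0.27 ± 0.17 (SE; adjusted p = 0.615). Atg2b, which transfers lipids into the membrane, measured 74.9, 80.9 and 86.3 CPM against 70.6, 65.4 and 69.8 CPM in WT. The genotypes did not overlap, and the log2 fold change was 0.23 ± 0.12 (SE; adjusted p = 0.533). Its paralog Atg2a had a log2 fold change of -0.08 ± 0.14, and their levels per kilobase were 9.66 CPM for Atg2a and 5.55 CPM for Atg2b.

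Atg9b had the largest log2 fold change of the 37 genes, 1.62 ± 0.83 (SE; adjusted p = 0.520), on very few reads. It had 29, 4 and 20 counts in the libraries labelled Trmt6-/- against 3, 3 and 12 in WT. KO73 lay within the WT range, so the groups overlapped. The summed counts, 53 against 18, gave a ratio of 3.23 after scaling for library size, with an exact (Clopper-Pearson) 95% interval of 1.86 to 5.86 that covers counting error only. Single libraries moved the fitted log2 fold change from 1.24 (without KO72) to 2.58 (without WT187, unadjusted p of 0.0337), and without KO73 it was 2.07 (unadjusted p of 0.0332). No adjusted p for Atg9b was under 0.383 in the 13 alternatives that tested it. The PI3P readers Wipi1 (0.29 ± 0.27) and Wipi2 (-0.14 ± 0.18) lay on opposite sides of 0.

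In the conjugation group 4 of the 5 genes had log2 fold changes below 0 and the median was -0.21. With the regional index in the model 4 of the 5 lay above 0, with a median of 0.0054, and only Atg5 below (-0.06). Atg5, which is joined to Atg12 to form the ligase for Atg8 proteins, was the most abundant per kilobase at 19.8 CPM. It measured 40.0, 39.6 and 50.3 CPM in the libraries labelled Trmt6-/- against 49.3, 57.9 and 43.0 CPM in WT. KO75 lay among the WT libraries and the other two lay below them, with a log2 fold change of -0.21 ± 0.17 (SE; adjusted p = 0.714). Its partner Atg12 had a log2 fold change of -0.25 ± 0.16. The E1-like enzyme Atg7, whose E-box is printed above, was the exception at 0.22, and its 3 libraries labelled Trmt6-/- spread little (29.0 to 30.5 CPM) within the wider WT range, whose highest value was 31.7 CPM. The E2-like enzymes Atg3 and Atg10 had values of -0.05 and -0.36. Atg10 was sparse, with 23 to 71 counts per library.

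The Atg4 proteases trim Atg8 proteins before conjugation and release them from membranes afterwards. Atg4d, the most abundant of the 4 per kilobase (9.80 CPM), measured 60.4, 76.2 and 70.2 CPM in the libraries labelled Trmt6-/- against 59.5, 86.4 and 74.2 CPM in WT. All libraries labelled Trmt6-/- lay inside the WT range, and the log2 fold change was -0.09 ± 0.18 (SE; adjusted p = 0.900). Of its exon bases, 19.3% overlap Kri1. Atg4a (0.27 ± 0.28) and Atg4c (0.25 ± 0.22) lay above 0 and Atg4b at -0.04 ± 0.13. With the regional index in the edgeR model all 4 lay above 0, with a median of 0.43. There Atg4a stood at 0.83 (unadjusted p of 0.00944, adjusted p of 0.128). Atg4c stood at 0.66 (unadjusted p of 0.00901, adjusted p of 0.1265). WT185 was the lowest library for all 4 genes except Atg4b, for which KO72 was lowest.

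Among the Atg8 proteins, the ubiquitin-like modifiers that coat the autophagosome, Gabarap was the most abundant machinery transcript per kilobase at 113 CPM. It was followed in its family by Gabarapl2 at 20.5, Map1lc3b at 9.87, Map1lc3a at 5.64 and Gabarapl1 at 3.25 CPM per kilobase. Gabarap measured 167, 195 and 261 CPM in the libraries labelled Trmt6-/- against 174, 244 and 211 CPM in WT. The groups covered nearly the same span, and the log2 fold change was -0.01 ± 0.22 (SE; adjusted p = 0.989). Map1lc3b, whose protein product LC3B is the usual marker of autophagosomes, measured 79.5, 82.4 and 82.2 CPM against 61.3, 67.4 and 72.3 CPM. Every library labelled Trmt6-/- lay above every WT library. The means were 81.4 ± 1.64 and 67.0 ± 5.49 CPM (SD, n = 3 each), and the log2 fold change was 0.28 ± 0.13 (SE), with an unadjusted p of 0.0610 and an adjusted p of 0.447. The unadjusted p was 0.0402 with upper-quartile scaling, 0.0418 in DESeq2 and 0.0439 with the regional index, and the adjusted p over all alternatives was 0.228 to 0.837. Map1lc3a (0.30 ± 0.28), Gabarapl1 (0.18 ± 0.27; 28.3% of exon bases shared with 1700101I11Rik) and Gabarapl2 (-0.15 ± 0.21) had groups that overlapped.

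Cargo receptors link ubiquitinated or other cargo to Atg8 proteins, and 3 of the 4 (Optn, Sqstm1 and Nbr1) were the most abundant machinery transcripts per kilobase after Gabarap. Sqstm1, the receptor p62, stood at 35.9 CPM per kilobase, and 17.3% of its exon bases overlap Mrnip. It measured 115, 144 and 126 CPM in the libraries labelled Trmt6-/- against 98.9, 132 and 107 CPM in WT. The genotypes interleaved, and the log2 fold change was 0.19 ± 0.17 (SE; adjusted p = 0.746). Optn, a receptor for bacteria and mitochondria, stood at 49.0 CPM per kilobase and measured 129, 190 and 143 CPM against 108, 307 and 225 CPM. WT185 was the lowest of the 6 libraries and the other two WT mice were the highest, so the groups overlapped; the log2 fold change was -0.47 ± 0.37 (SE; adjusted p = 0.701). With the regional index in the model its sign turned, to 0.34. It was -0.77 without WT185 (unadjusted p of 0.0202, adjusted p of 0.264) and -0.09 without WT186. Nbr1, a partner of p62 in cargo clusters, had a log2 fold change of -0.02 ± 0.19 and stood at 29.8 CPM per kilobase, and Calcoco1, a receptor for the endoplasmic reticulum, one of 0.09 ± 0.24 at 2.82 CPM per kilobase.

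The WT mice differed among themselves across the machinery genes. WT185 was the lowest of the 3 WT libraries for 24 of the 37 genes (64.9%; 39.5% of all genes) and WT186 the highest for 26 (70.3%; 38.3% of all genes). The mean log2 CPM of the 37 genes was 5.11, 5.14 and 5.18 under the Trmt6-/- label against 4.95, 5.22 and 5.13 in WT. The libraries labelled Trmt6-/- thus lay between the lowest and the highest WT library. The SD over libraries of log2(CPM + 0.5) was larger in WT for 30 of the 37 genes, with medians of 0.245 in WT and 0.123 in the libraries labelled Trmt6-/-. Over all genes tested these medians were 0.324 and 0.256, also larger in WT but with a smaller gap than for the machinery genes. The number of all genes with a larger SD in WT was not counted. The cargo receptors differed most among WT mice, by group means of -0.42 in WT185 and 0.31 in WT186 relative to the WT mean. WT185 and WT186 also stood at the low and high ends of WT for the summed absorptive enterocyte markers (15189 and 38208 CPM) and at opposite ends of the WT regional index (-1.69 and -7.41). For the summed Paneth cell markers the order was the reverse, with WT185 highest of WT at 6894 CPM and WT186 lowest at 811 CPM. The part of these in the machinery values was not tested.

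**Figure D4:**
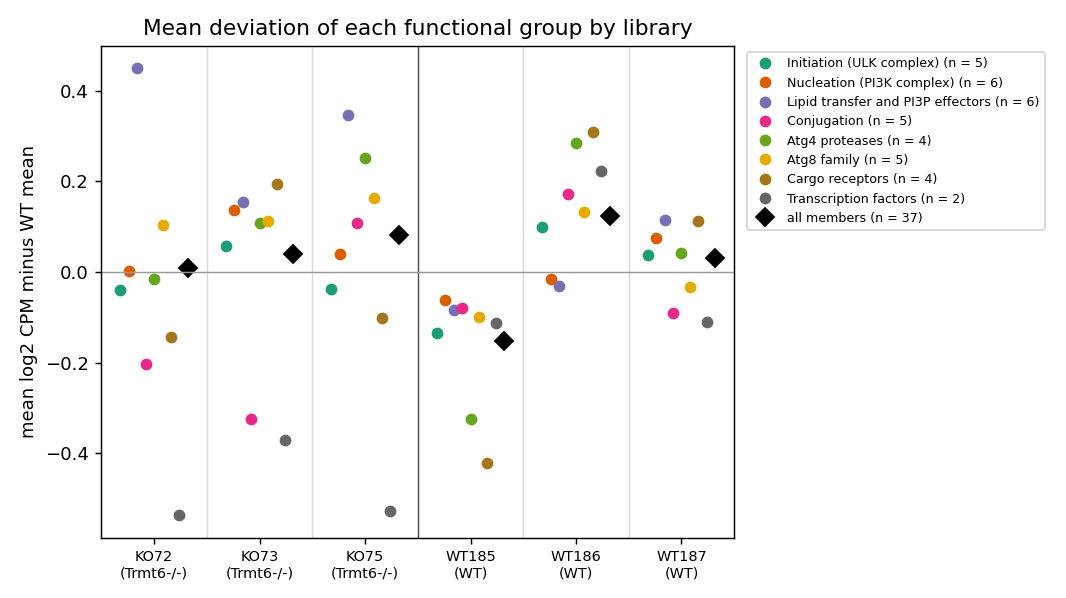
Mean log2 CPM of each functional group in each library, relative to the mean of the WT libraries; the black diamond is the mean over all 37 genes. The transcription factors lie at -0.54, -0.37 and -0.53 in the libraries labelled Trmt6-/-, and WT185 and WT186 lie on opposite sides of 0 for most groups.

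Lists of neighbouring genes were read in the same fit, and none of their genes passed an adjusted p of 0.05 either. Of 33 further autophagy genes 30 were tested, with a median log2 fold change of -0.04. At an unadjusted p below 0.05, 4 stood above 0 and 1 below (16.7% of the 30, against 12.1% of all genes). Plekhm1, which tethers autophagosomes and endosomes to lysosomes, measured 68.0, 107 and 105 CPM in the libraries labelled Trmt6-/- against 42.7, 45.3 and 46.2 CPM in WT. No library overlapped the other genotype, and the log2 fold change was 1.06 ± 0.20 (SE; adjusted p = 0.153). Bnip3l, a mitochondrial receptor for autophagy, measured 101, 105 and 103 CPM against 60.4, 74.4 and 60.4 CPM. It did not overlap either, with a log2 fold change of 0.66 ± 0.14 (SE; adjusted p = 0.181).

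Among 38 tested genes of 39 for mTORC1 and AMPK, the kinases that repress and activate autophagy, the median was -0.11, with 2 genes higher and 4 lower at an unadjusted p below 0.05 (15.8%, against 12.1% of all genes). Rragd, a Rag GTPase that tethers mTORC1 to lysosomes and a known Tfeb target, measured 32.6, 57.7 and 73.3 CPM in the libraries labelled Trmt6-/- against 97.1, 212 and 182 CPM in WT. Its log2 fold change was -1.59 ± 0.39 (SE; adjusted p = 0.210); its libraries spread widely within each genotype. Stk11, the kinase LKB1 that activates AMPK, measured 69.7, 69.4 and 59.9 CPM against 96.4, 93.6 and 93.0 CPM, with a log2 fold change of -0.51 ± 0.13 (SE; adjusted p = 0.218). Both were lower in every library labelled Trmt6-/-.

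All 35 lysosomal hydrolase and membrane protein genes were tested, with a median of -0.05. At an unadjusted p below 0.05, 7 were higher in the libraries labelled Trmt6-/- and 1 lower (22.9%, against 12.1% of all genes). Lgmn, the protease legumain, measured 46.1, 68.2 and 96.1 CPM in the libraries labelled Trmt6-/- against 23.8, 16.3 and 16.0 CPM in WT, with a log2 fold change of 1.91 ± 0.31 (SE; adjusted p = 0.123). Scarb2, the lysosomal membrane protein LIMP-2, measured 111, 104 and 101 CPM against 71.8, 84.1 and 65.1 CPM, with a log2 fold change of 0.52 ± 0.14 (SE; adjusted p = 0.251). Both were higher in every library labelled Trmt6-/- than in any WT library.

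Subunits of the vacuolar ATPase, which acidifies the lysosome, gave 16 tested genes of 17 with a median of 0.03, and none reached an unadjusted p of 0.05. The smallest p belonged to Atp6v1b2 (0.28 ± 0.14, adjusted p = 0.510) and Atp6v1g1 (0.24 ± 0.13, adjusted p = 0.533). Of 6 other regulators of autophagy transcription 4 were tested. Atf4, the stress factor whose composite element was searched above, measured 252, 214 and 326 CPM against 156, 142 and 187 CPM in WT, with a log2 fold change of 0.71 ± 0.21 (SE; adjusted p = 0.275). Foxo3, a forkhead factor active when insulin signalling is low, measured 63.7, 79.3 and 55.7 CPM against 80.0, 114 and 85.2 CPM, with a log2 fold change of -0.49 ± 0.20 (SE; adjusted p = 0.402). The genotypes did not overlap for either gene.

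**Figure D5:**
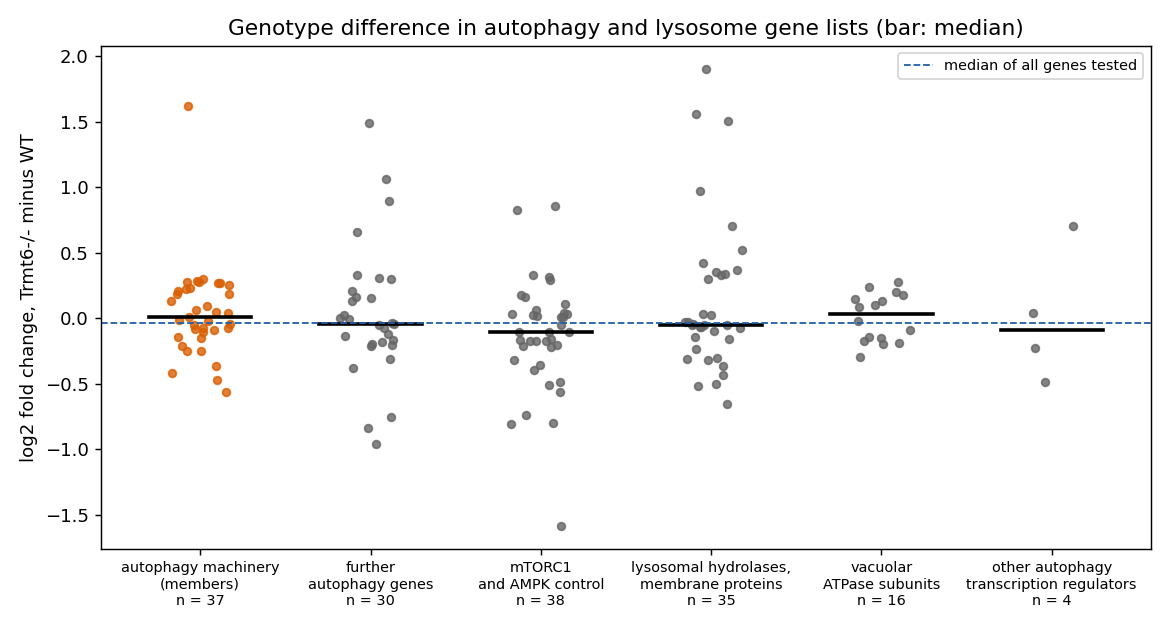
Log2 fold change (libraries labelled Trmt6-/- minus WT) of every tested gene in the machinery and in the 5 neighbouring lists, points spread sideways for visibility, with the median of each list as a bar and the median of all genes as a dashed line. The machinery genes other than Atg9b lie between -0.56 and 0.30, and single lysosomal and mTORC1 genes lie farther from 0.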

How the data were processed

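RNA-seq was made from intestinal tissue of 3 WT and 3 Trmt6-/- mice with DSS colitis, one mouse per library per the series' design. Per the labels' protocols, amplified cDNA was made into libraries with a transposase-based kit, and no molecular identifiers are mentioned; an interval from counts therefore holds the error of counting alone. Deposited values are raw counts per gene, per the file headers from featureCounts 2.0.1 on GENCODE M23; the header sets no strand option. Per the submitters' processing notes, fastp, HISAT2 and the mm10 build were used. The deposited gene length column (unit: other, bases of exon) served only to give levels per kilobase. That length includes bases shared with other genes, where reads may not have been counted, so levels of such genes may be too low. Column names give KO or WT with a number found in no label, and were matched to groups only. Symbols came from a GENCODE table on GRCm38 that matched 55154 of 55335 identifiers.

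After filterByExpr and TMM scaling (factors 0.910 to 1.13), genotypes were compared by the two-sided quasi-likelihood test of edgeR 4.0.16 in R 4.3.3, with genotype as the only term and Benjamini-Hochberg adjustment over all 14107 genes tested (threshold 0.05). The biological coefficient of variation was 0.345. CPM were computed on TMM-scaled library sizes, and intervals of fold changes are at the 95% level. The SE of a log2 fold change was derived from its size and the quasi-likelihood F statistic. These SE and the intervals built on them are therefore approximate. The procedure was tested on simulated data in which all genes shared the same variation. A pass was required only of edgeR, at a biological coefficient of variation below the 0.345 of these data. Alternatives were DESeq2 1.42.0, limma-voom (limma 3.58.1), scaling by RLE, upper quartile or library totals, other low-count filters, a regional index as covariate and each library left out in turn. The index (ileal Slc51b, Fgf15, Slc10a2, Fabp6; proximal Fabp1, Cybrd1, Lct, Gata4; difference of mean log2 CPM) had been devised in an earlier analysis of these data.

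The members, lists and tests were chosen with earlier results of these data known. Values per library are given for members at an unadjusted p below 0.05, for the member of each functional group with the highest level per kilobase, and for Ulk1, Becn1, Map1lc3b, Sqstm1, Tfeb and Tfe3. From each neighbouring list up to 2 genes are named, those of smallest p among genes averaging at least 5 CPM. Library values of other members, such as Pik3c3, Atg2b and Atg9b, were chosen after they were seen. Ddit3 matched 2 identifiers and was left out of its list.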

Additional observations from a re-analysis of the deposited data

How the results depend on the processing

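No machinery gene passed an adjusted p of 0.05 under any of the 14 alternatives. DESeq2 called 627 genes in all (4.44%) and gave 0.109 as the lowest adjusted p of the 37. With library totals, limma-voom or the regional index, or without KO73, KO75, WT186 or WT187, no gene at all passed. The absence of machinery genes adds nothing in those alternatives. The count of machinery genes at an unadjusted p below 0.05, 2 in the edgeR test (5.41%, against 12.1% of all genes), was 1 without a low-count filter (Tfeb; 2.7% against 8.39%), 3 in DESeq2 and with upper-quartile scaling (Map1lc3b added; 8.11% against 13.9% and 12.3%) and 4 with the regional index (all higher under the Trmt6-/- label, Tfeb and Tfe3 not among them; 10.8% against 20.5%). With 1 library left out it ran from 0 to 4: 0 without KO72, KO75 or WT186 (9.59%, 10.3% and 11.5% of all genes), 4 without WT185 (10.8% against 14.5%). The count of genes without overlap, 5 in all 6 libraries, ran from 6 to 12 with 1 library left out. The machinery and all-gene shares were 16.2% and 27.8% without KO72, 18.9% and 23.7% without KO73, 24.3% and 29.7% without KO75, 29.7% and 32.2% without WT185, 32.4% and 30.8% without WT186, and 21.6% and 25.2% without WT187. The median log2 fold change of the 37 genes, 0.01, became 0.22 with the regional index, where 27 genes lay above 0; the cause was not tested. Of the 37 genes, 20 changed sign in at least 1 alternative, among them 4 of those with values by library under the naming rule. Gabarap was 0.36 with the regional index and 0.0085 with upper-quartile scaling, and it ran from -0.20 to 0.13 with 1 library left out, above 0 without KO72, KO73 or WT186. Atg4d was 0.20 with the regional index and ran from -0.20 to 0.057 with 1 library left out, above 0 without KO72 or WT186. Optn was 0.34 with the regional index. Becn1 ran from -0.045 (without WT185) to 0.17 (without WT186) with 1 library left out. Scaling by library totals moved the median of all genes to -0.11 and that of the machinery genes to -0.067, with 16 of 37 above 0 there. Neither the regional index nor DESeq2 and limma-voom applies to the count of genes without overlap. No paired analysis was possible because the numbers in the column names of the count table are not the replicate numbers of the labels. Depth limits Atg9b and Atg10 most.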
